A study of Rattus norvegicus with 16 samples.

Results

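The dual-specificity MAP kinase phosphatases are enzymes that remove the activating phosphates from the threonine and the tyrosine of ERK, JNK and p38. The members described are 10 genes, Dusp1, Dusp2, Dusp3, Dusp4, Dusp5, Dusp6, Dusp7, Dusp10, Dusp14 and Dusp16, taken by the gene name that the array gives its probes. Of the 10 genes, 9 had a probe under their name, with 12 probes in all among 41012 probes for transcripts. Of these 12 probes, 11 were bright enough to be tested, among 27294 probes tested in all.

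Primary hippocampal neuron cultures were prepared from Sprague-Dawley rat embryos of either sex at embryonic day 18 to 19. The study concerns PRR7, a transmembrane protein of synapses. The 4 groups were cultures that were not transduced (NO), cultures given lentivirus with a non-targeting shRNA (NT), cultures given lentivirus with a PRR7 shRNA in the pTRIP vector (KD, knockdown), and cultures given lentivirus that overexpresses full-length PRR7 from the FUGW vector (OE). Each group held 4 samples, named biological replicates in the study design, with nothing said of separate litters or dishes. P-values thus measure the spread between these samples and the arrays that carried them. The protocol gives 1 shRNA target sequence, no group is labelled as given an empty FUGW virus, and no probe for Prr7 was found by name, so neither the knockdown nor the overexpression could be checked on its target.

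Each of the 8 Agilent arrays carried 2 samples of the same group, 1 in Cy3 (replicates 1 and 3) and 1 in Cy5 (replicates 2 and 4). KD and NT lay on 1 slide and OE and NO on the other. KD against NT and OE against NO are thus comparisons inside a slide. In NT against NO, KD against NO and OE against NT, effects of slide and of group cannot be told apart. In the 16 samples, between 50.2% and 70.5% of probes were well above background, and no probe was saturated. All 9 neuron markers with a probe were well above background in all 16 samples, as were 7 of 8 astrocyte markers, and 2 of 8 microglial markers (Csf1r and Cd68). Of the other microglial markers C1qa reached that level in 9 samples, P2ry12 in 6 and Ptprc in 4, and Aif1, Cx3cr1 and Itgam in none. In bulk RNA, fewer cells of a type and less RNA per cell cannot be told apart.

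As background, these phosphatases divide the work by place and by target. The inducible nuclear enzymes (Dusp1, Dusp2, Dusp4, Dusp5) are transcribed within minutes to hours of stimulation as immediate-early or delayed-early genes and end MAP kinase signals in the nucleus. The cytoplasmic enzymes Dusp6 and Dusp7 act on ERK, Dusp10 and Dusp16 act on JNK and p38, and Dusp3 and Dusp14 are small atypical enzymes that lack the kinase-docking domain of the others. In hippocampal neurons several of the inducible enzymes are raised by synaptic activity and growth factors.

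All 4 inducible nuclear members were lower in KD than in NT, with Dusp1 3.96-fold and Dusp2 3.7-fold lower. On the deposited matrix Dusp4 and Dusp5 did not pass, and on loess values without alignment between arrays Dusp2, Dusp4 and Dusp5 did not. Dusp3 was 2.65-fold lower at its brightest probe, Dusp16 was 1.76-fold higher, and the ERK-specific pair Dusp6 and Dusp7 did not pass. Of the 11 member probes, 7 passed in KD against NT, where 21% of all probes passed, 1 of them higher (10.3% of all probes) and 6 lower (10.8%). In 7 of 11 the KD and NT samples did not overlap, as for 37.7% of all probes. Over all probes 48.8% of the calls were higher, a share that became 78.8% on the deposited matrix and 97.2% on loess values without alignment between arrays, so directions are relative to the typical probe. The same 4 nuclear members were higher in NT than in NO, so that the fall from NT to KD and the rise from NO to NT share the NT samples and are not independent of each other. Values are log2 intensities, on which 1 unit is a 2-fold change, and a probe passed at a limma p adjusted by Benjamini-Hochberg over 27294 probes under 0.05.

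**Figure D1:**
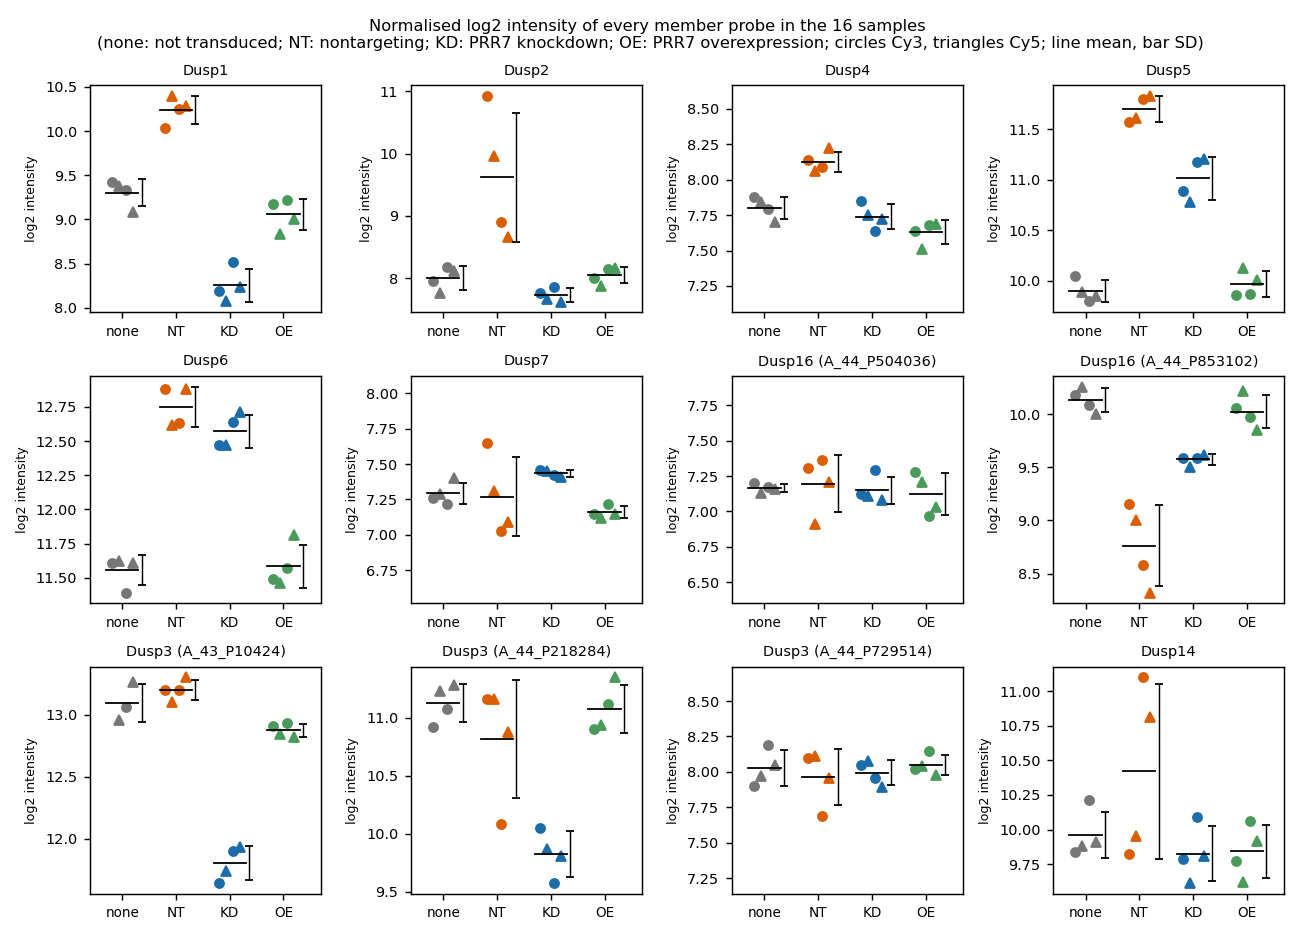
Normalised log2 intensity (vertical axis, a separate range in each panel) of all 12 member probes in the 16 samples, by group (horizontal axis), with circles for Cy3, triangles for Cy5, a line at the mean and a bar of 1 SD. Dusp1 in KD lies between 8.08 and 8.52, below the other groups, and Dusp5 and Dusp6 are higher in NT and KD than in NO and OE.

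Dusp1, the immediate-early phosphatase of p38, JNK and ERK, was lowest in KD and highest in NT. Its log2 intensities were 9.42, 9.38, 9.33 and 9.08 in NO, 10.03, 10.40, 10.25 and 10.28 in NT, 8.19, 8.08, 8.52 and 8.23 in KD, and 9.17, 8.83, 9.22 and 9.01 in OE (replicates 1 to 4). The NT and KD samples lay apart from each other and from NO and OE, while the ranges of NO and OE overlapped. KD was lower than NT by a log2 difference of -1.99 (SE 0.18, adjusted p = 2.16e-06) and lower than NO by -1.05 (adjusted p = 0.00172). NT was higher than NO by 0.94 (adjusted p = 0.00152), a change of 1.92-fold. Under loess without alignment between arrays the KD against NT call stayed, whereas NT against NO (0.57, adjusted p = 0.284) and KD against NO (-0.76, adjusted p = 0.0903) did not pass. The probe lies on rn4 at chr10:16944342-16944661, a span of 320 bases for a probe of 60. It is shown because the Dusp1 values rest on this probe alone.
Dusp1 probe: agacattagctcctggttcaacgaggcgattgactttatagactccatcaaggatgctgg

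The promoter of Dusp1 holds a cyclic AMP response element, the site bound by CREB. RefSeq promoter windows (GRCr8) were found for 9 of the 10 members, Dusp4 being the exception, and the 250 bases before each start were searched on both strands for TGACGTCA (the full element), TGACG (its 5-base core, which the full element contains), TGANTCA (AP-1), GCGNGGGCG (EGR) and the CArG box bound by SRF. Among 33469 windows of all genes the full element was in 1.59%, the core in 18.2%, AP-1 in 6.34%, EGR in 4.29% and the CArG box in 1.5%. The full element occurred in Dusp1 and in none of the other members' windows, and the CArG box in Dusp5, with 2 matches end to end at 82 and 72 bases before the start. The Dusp5 window also held the core at 55 and an EGR match at 172. The windows of both genes are shown because they hold the 2 rarest of the motifs searched, from 5 prime to 3 prime with the matches in capitals. Dusp1 is at chr10:17184603-17184852 and Dusp5 at chr1:262543524-262543773, both on the plus strand.
Dusp1 promoter: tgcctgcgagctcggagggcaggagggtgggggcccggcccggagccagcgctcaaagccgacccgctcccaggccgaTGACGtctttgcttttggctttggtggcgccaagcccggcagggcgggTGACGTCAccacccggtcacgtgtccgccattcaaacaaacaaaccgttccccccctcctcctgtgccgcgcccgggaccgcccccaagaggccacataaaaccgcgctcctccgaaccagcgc
Dusp5 promoter: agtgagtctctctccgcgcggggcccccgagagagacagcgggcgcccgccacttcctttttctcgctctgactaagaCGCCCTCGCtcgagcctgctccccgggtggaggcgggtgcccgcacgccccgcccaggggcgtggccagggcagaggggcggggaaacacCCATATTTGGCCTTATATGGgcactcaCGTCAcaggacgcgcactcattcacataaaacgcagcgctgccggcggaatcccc

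In the other windows, Dusp2 had the core at 9 and an EGR match at 112 bases before the start, and Dusp16 the core at 70 and an EGR match at 157. Dusp3 had the core at 193, and 1 of the 3 windows of Dusp14 had the core at 77 and an AP-1 match at 89. No match was found in the windows of Dusp6, Dusp7 and Dusp10. A match describes the letters of the window and shows no binding.

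**Figure D2:**
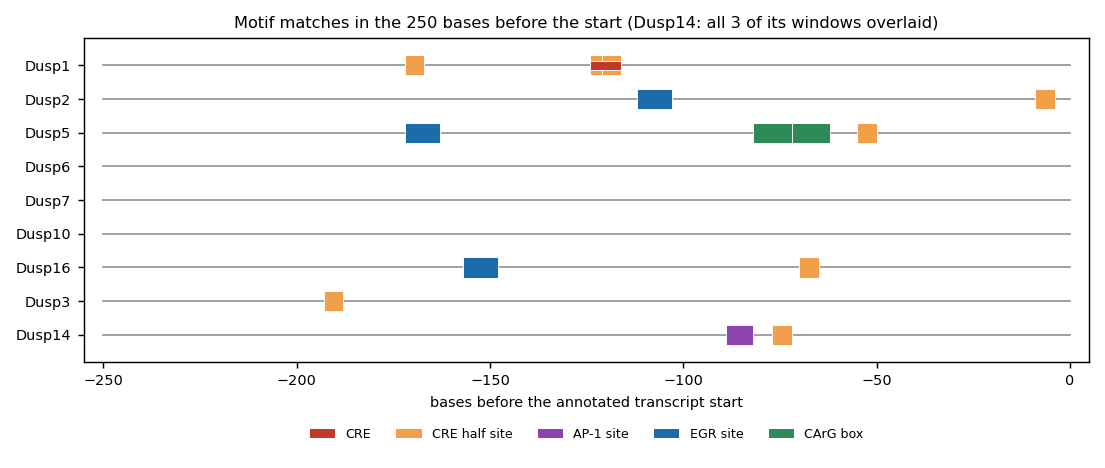
Motif matches on either strand (coloured blocks) in the 250 bases before the annotated start (horizontal axis, in bases) of 9 member genes, 1 line a gene. The full cyclic AMP response element of Dusp1 lies at 124 bases before the start, and the CArG boxes of Dusp5 lie at 82 and 72.

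Dusp2, a nuclear phosphatase best known from activated lymphocytes, was higher in every NT sample than in the other 12. The NT values were 10.93, 9.97, 8.91 and 8.66, against 7.96, 7.76, 8.18 and 8.12 in NO, 7.77, 7.67, 7.86 and 7.62 in KD, and 8.01, 7.88, 8.14 and 8.16 in OE. The NT samples of the array with replicates 1 and 2 averaged 10.45 and those of the other array 8.79. KD was lower than NT by -1.89 (SE 0.38, adjusted p = 0.00216), and without the array of NT replicates 1 and 2 by -1.06 (adjusted p = 0.000178). NT was higher than NO by 1.62 (adjusted p = 0.00649), by 0.78 without the array of NT replicates 1 and 2, by 2.45 without that of NT replicates 3 and 4, and by 1.47 without that of NO replicates 1 and 2 (adjusted p = 0.058, not passing). On the processed signal KD against NT was -2.97 (adjusted p = 0.00105), and under loess without alignment it was -1.16 (adjusted p = 0.0596) and NT against NO 1.42 (adjusted p = 0.0738), neither passing. KD and NO differed by -0.27 (95% interval -1.07 to 0.53, adjusted p = 0.705). The values in NO, KD and OE, from 7.62 to 8.18, were dim, though well above background in every sample. The probe, at chr3:114839775-114839834 on rn4, is shown because it carries the widest spread of the members.
Dusp2 probe: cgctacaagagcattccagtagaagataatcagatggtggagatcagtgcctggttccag

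Dusp4, a nuclear phosphatase of ERK and JNK, was a dim probe whose differences depended on the scaling. It measured 7.88, 7.84, 7.79 and 7.70 in NO, 8.14, 8.06, 8.09 and 8.22 in NT, 7.85, 7.75, 7.64 and 7.72 in KD, and 7.64, 7.51, 7.68 and 7.69 in OE. NT lay above the other groups with no overlap. KD was lower than NT by -0.38 (SE 0.1, adjusted p = 0.0141), which no longer passed without the array of KD replicates 3 and 4 (-0.32, adjusted p = 0.122). NT was higher than NO by 0.32 (adjusted p = 0.0355), which no longer passed without NO replicate 2, 3 or 4 or NT replicate 4 (0.33, 0.33, 0.30 and 0.28, adjusted p = 0.0519, 0.0548, 0.066 and 0.0753). Without the array of NT replicates 3 and 4, of OE replicates 3 and 4, or of NO replicates 1 and 2 or 3 and 4, this adjusted p was 0.073, 0.0537, 0.0579 and 0.175. On loess-normalised values without alignment between arrays the KD against NT difference turned to 0.36 (adjusted p = 0.241), where the median of all probes was itself at 0.64, and on the deposited matrix it was -0.48 (adjusted p = 0.125). On the processed signal the differences were larger, at -1.02 in KD against NT (adjusted p = 0.00215) and 0.85 in NT against NO (adjusted p = 0.00702). NT against NO was 0.56 on the deposited matrix (adjusted p = 0.072) and 0.12 under loess without alignment (adjusted p = 0.865), neither passing.

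Dusp5, the ERK-specific enzyme of the nucleus, was higher in NT and KD, the groups with an shRNA virus, than in NO and OE. This is also the split between the slides, so slide and virus cannot be told apart here. It measured 10.05, 9.89, 9.80 and 9.85 in NO and 9.86, 10.13, 9.87 and 10.01 in OE, against 11.57, 11.61, 11.80 and 11.83 in NT and 10.89, 10.78, 11.18 and 11.21 in KD. The NT samples lay above the KD samples, both lay above NO and OE, and NO and OE overlapped. NT was 3.49-fold higher than NO (log2 difference 1.80, SE 0.14, adjusted p = 8.94e-07) and KD 2.17-fold higher than NO (1.12, adjusted p = 0.000193). KD was lower than NT by -0.68 (adjusted p = 0.00263), and by -0.51 without the array of KD replicates 1 and 2 (adjusted p = 0.0507, not passing). This call was also lost on the deposited matrix (-0.51, adjusted p = 0.101) and under loess without alignment (-0.33, adjusted p = 0.24).

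The cytoplasmic ERK-specific members were split. Dusp6, a feedback inhibitor transcribed in response to ERK activity, measured 11.61, 11.62, 11.39 and 11.61 in NO and 11.49, 11.46, 11.57 and 11.81 in OE, against 12.88, 12.62, 12.63 and 12.88 in NT and 12.47, 12.47, 12.64 and 12.71 in KD. NT and KD overlapped with each other and lay above NO and OE, which is again the split between the slides. NT was higher than NO by 1.20 (SE 0.15, adjusted p = 5.04e-05) and KD higher than NO by 1.02 (adjusted p = 0.000596). KD against NT gave -0.18 with a 95% interval of -0.49 to 0.13 (adjusted p = 0.433), so that a fall of Dusp6 as large as that of Dusp1 lay outside the interval. Whether the KD against NT differences of Dusp5 and Dusp6 differ from each other was not tested.

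Dusp7, the other cytoplasmic ERK phosphatase, was near the limit of the array, well above background in 2 NO, 1 NT, 2 KD and 1 OE sample. Its values ran from 7.22 to 7.40 in NO, 7.03 to 7.65 in NT, 7.41 to 7.46 in KD and 7.12 to 7.22 in OE. None of the 5 comparisons passed, with KD against NT at 0.16 (95% interval -0.14 to 0.47). Without the array of NT replicates 1 and 2 that difference was 0.37 (adjusted p = 0.0159), a pass on a probe that most samples did not measure above background.

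Of the JNK and p38 enzymes, Dusp16 was higher in KD than in NT and lower in NT than in NO, the opposite directions to those of the nuclear members in these comparisons. In KD against NO it was lower, as was Dusp1. Its bright probe measured 10.18, 10.26, 10.09 and 10 in NO, 9.15, 9, 8.58 and 8.32 in NT, 9.59, 9.50, 9.59 and 9.62 in KD, and 10.06, 10.22, 9.97 and 9.85 in OE. NT was lowest, KD lay between NT and the other groups with no overlap, and NO and OE overlapped. NT was 2.59-fold lower than NO (log2 difference -1.37, SE 0.17, adjusted p = 5.61e-05), and KD was higher than NT by 0.81 (adjusted p = 0.00311), or by 0.50 without the array of NT replicates 3 and 4 (adjusted p = 0.0198). KD against NO was -0.56 with an adjusted p of 0.0491, which passed in 12 of 40 alternatives. It did not pass without any 1 of the NO or KD replicates, NT replicate 2, or OE replicate 1, 3 or 4 (adjusted p from 0.0591 to 0.0925), nor without any 1 of the KD, OE or NO arrays (adjusted p from 0.0556 to 0.23).

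The second Dusp16 probe lies at chr4:171623535-171623594 on rn4 and the bright one at chr4:171620567-171620626 on the minus strand. It was well above background in 1 NT and 1 OE sample, lay between 6.91 and 7.36 in all 16 samples, and was not tested. No probe carried the name Dusp10. A probe outside the rule that the array describes as Dusp10, at chr13:100050617-100050676 on rn4, was not well above background in any sample, with group means of 6.84 in NO, 6.89 in NT, 6.83 in KD and 6.78 in OE.

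Dusp3, a small atypical phosphatase of ERK and JNK, had 3 probes that did not behave alike. The brightest, at chr10:91031243-91031302 on rn4, measured 11.64, 11.74, 11.90 and 11.93 in KD, against 13.20, 13.10, 13.20 and 13.30 in NT, 12.91, 12.84, 12.93 and 12.82 in OE, and 12.96, 13.06 and 13.26 in NO replicates 2 to 4, replicate 1 being flagged and left out of the fit. The KD samples lay below the other 11. KD was lower than NT by -1.40 (SE 0.12, adjusted p = 2.87e-06) and lower than NO by -1.27 (adjusted p = 4.01e-05), while NT against NO gave 0.13 (95% interval -0.14 to 0.41).

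The probe at chr10:91034970-91035029 measured 10.92, 11.23, 11.08 and 11.28 in NO, 11.16, 11.16, 10.08 and 10.88 in NT, 10.05, 9.87, 9.57 and 9.81 in KD, and 10.90, 10.94, 11.12 and 11.35 in OE. KD was again the lowest group, with NT replicate 3 close above its highest sample. KD was lower than NT by -1 (SE 0.25, adjusted p = 0.0094), which did not pass without the array of NT replicates 1 and 2 (-0.66, adjusted p = 0.0675) or of KD replicates 3 and 4 (-0.86, adjusted p = 0.0985). Nor did it pass under loess without alignment (-0.56, adjusted p = 0.231) or in a fit of these 2 groups alone (adjusted p = 0.0727). Against NO, KD was lower by -1.30 (adjusted p = 0.00403), or by -1.17 without the array of KD replicates 3 and 4 (adjusted p = 0.0552). The dim probe between them, at chr10:91033707-91033766, ranged from 7.69 to 8.19 over all groups and gave 0.03 for KD against NT (95% interval -0.26 to 0.31). All 3 probes lie on the minus strand within the same locus, so the gene's fall is seen in 2 of 3 probes. In KD against NT the brightest passed in 38 of 38 alternatives and the other of these in 34 of 39. The probe with the larger spread in NT is shown.
Dusp3 probe: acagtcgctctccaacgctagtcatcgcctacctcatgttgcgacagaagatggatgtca

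Dusp14, the other atypical member, showed a split within NT. It measured 9.82, 9.95, 11.10 and 10.81 in NT, against 9.84, 9.88, 10.21 and 9.91 in NO, 9.79, 9.61, 10.09 and 9.81 in KD, and 9.77, 9.62, 10.06 and 9.92 in OE. The NT array with replicates 3 and 4 averaged 10.96 and the other 9.89, so the high values belong to 1 array, the array on which Dusp2 was the lower. KD against NT was -0.60 (adjusted p = 0.1) and did not pass, but gave an adjusted p of 0.0218 with the replicate number as a block. Without NT replicate 1 it was -0.74 (adjusted p = 0.0244). Without the array of NT replicates 1 and 2 it was -1.14 (adjusted p = 0.000279), and NT against NO was then 1 in place of 0.46 (adjusted p = 0.000753 in place of 0.198). Over the alternatives KD against NT passed in 3 of 40 and ran from -1.14 to -0.06, with an adjusted p as high as 0.857. NT against NO passed in 1 of 40 and ran from -0.08 to 1. The probe lies at chr10:72336588-72336647 on rn4 and is shown for this array split.
Dusp14 probe: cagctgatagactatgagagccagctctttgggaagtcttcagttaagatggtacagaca

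Over the members, the inducible nuclear class had a median log2 difference of -1.29 in KD against NT and of 1.28 in NT against NO, beside -0.02 and 0.03 over all gene names. In NT against NO 6 of 11 member probes passed, where 22.2% of all probes passed, 5 of them higher (11.2% of all probes) and 1 lower (11.1%), and 6 of 11 did not overlap (32.2%). In KD against NO 6 of 11 passed, where 10.1% of all probes passed, and 7 of 11 did not overlap (29.7%). Those higher were Dusp5 and Dusp6, 2 of 11 (4.76% of all probes), and those lower were Dusp1, Dusp16 and 2 probes of Dusp3, 4 of 11 (5.36%). Set against cultures without virus, KD thus showed Dusp1 and Dusp3 below NO and Dusp5 and Dusp6 above it, and for Dusp2 and Dusp4 no difference passed. The comparisons share their KD, NT or NO samples, and in those with NO effects of slide and of group cannot be told apart.

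**Figure D3:**
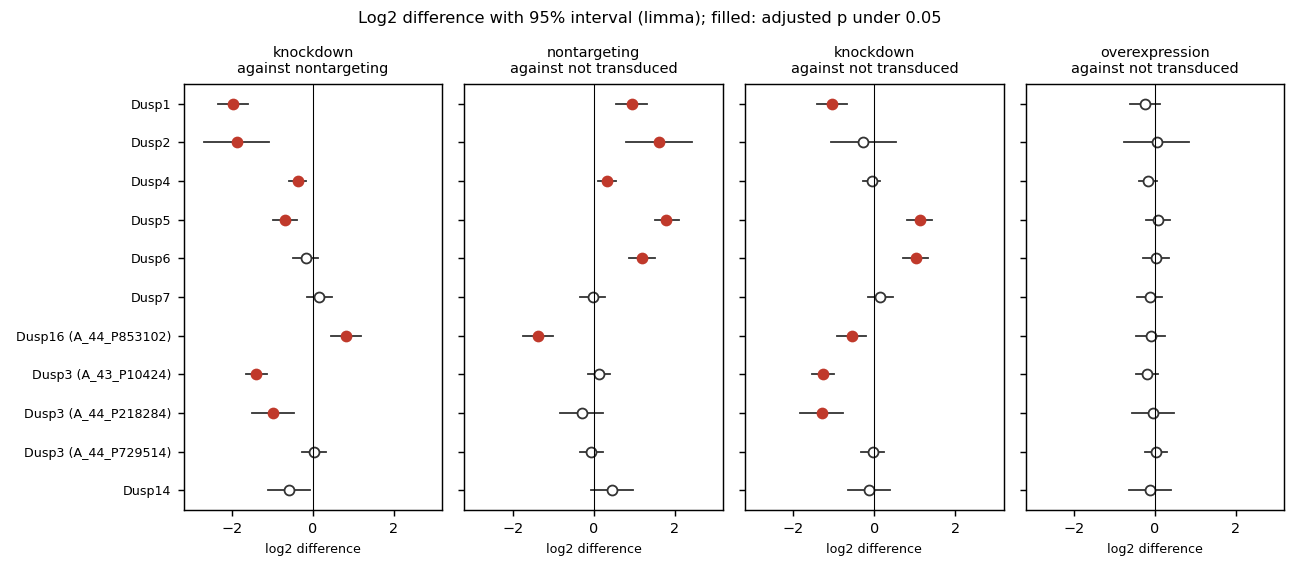
Log2 difference (horizontal axis) with its 95% interval for the 11 member probes tested (vertical axis) in 4 comparisons, with filled points where the adjusted p was under 0.05. Dusp5 and Dusp6 lie right of 0 in both comparisons of an shRNA group with cultures that were not transduced, Dusp1 changes side, and no overexpression value is filled.

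In OE against NO 0 of 11 member probes passed in limma and 0 had an unadjusted p under 0.05, where 0.00366% of all probes passed and 3.8% had an unadjusted p under 0.05. In 2 of 11 the OE and NO samples did not overlap, as for 6.45% of all probes. The log2 differences ran from -0.24 (Dusp1, 95% interval -0.62 to 0.13) to 0.07 (Dusp5, -0.23 to 0.37). The interval was widest for Dusp2 at -0.76 to 0.84, so that a change of that size in Dusp2 could not have been told from none. Against NT, 6 of 11 member probes passed in OE, where 22.5% of all probes passed, 5 of them lower (11.9% of all probes) and 1 higher (10.6%), and 7 of 11 did not overlap (36.6%). Among them were Dusp5 at -1.74 (adjusted p = 1.28e-06), Dusp6 at -1.17 (adjusted p = 6.49e-05), Dusp1 at -1.18 (adjusted p = 0.000261) and Dusp16 at 1.26 (adjusted p = 0.000119). Dusp2 stood at -1.57 (adjusted p = 0.00758), at -0.74 without the array of NT replicates 1 and 2, at -2.41 without that of NT replicates 3 and 4 and at -1.47 without that of OE replicates 1 and 2 (adjusted p = 0.067), and Dusp4 at -0.49 (adjusted p = 0.00302), or -1.17 on the processed signal, -1.11 on the deposited matrix and -0.08 under loess without alignment (adjusted p = 0.847). Under loess without alignment Dusp1 and Dusp2 did not pass either, at -0.80 and -1.20 (adjusted p = 0.109 and 0.126).

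Genes of the surrounding pathway passed in both directions. Of all gene names, 21.5% passed in KD against NT. The share was 21.7% in the ERK cascade and 28.6% in the JNK and p38 cascade. It was 15.4% of other dual-specificity phosphatases and 12.5% of other phosphatases of MAP kinases. In the ERK cascade 4 of 23 tested genes rose and 1 fell. Among those that rose were the exchange factor Sos1, by 1.17 (a second probe 0.27, adjusted p = 0.132), the exchange factor Rasgrf2, by 0.86, and the adaptor Shc3, by 0.66. The gene that fell, named after its value was seen, was the kinase Map2k1 at -0.65. In the JNK and p38 cascade 2 of 14 rose, the JNK genes Mapk9 (0.53, other probes 0.34 and 0.51, of which the second passed) and Mapk10 (0.52). In the same list 2 fell, the p38 activator Map2k3 (-0.45, adjusted p = 0.0437) and the scaffold Mapk8ip3 (-0.82, a second probe -0.07). Of 13 other dual-specificity phosphatases Dusp12 rose (1.20, SE 0.4, adjusted p = 0.0462) and Dusp22 fell (-0.68). Of 8 other phosphatases of MAP kinases Ppp2cb rose (0.63, a second probe -0.06).

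Among ERK feedback and target genes 3 of 19 rose and 3 fell in KD against NT, with a list median of 0.04. Fos, the immediate-early AP-1 subunit, fell by 3.53 on the log2 scale (adjusted p = 1.21e-06), and the ERK pathway inhibitor Spry1 by 0.84 (a second probe -0.06), whereas Srf rose by 0.87 (a second probe 0.05) and Phlda1 by 0.51 (a second probe 0.55). The remaining called genes, named after their values were seen, were Egr1 at 0.98 and Etv1 at -0.68 (3 other probes at -0.75, 0.25 and -0.27, of which the first passed). In NT against NO, where 22.6% of gene names passed, 5 of 19 rose and 4 fell. The rises were led by Fos (2.84) and Etv1 (1.01, other probes 0.65, 0.54 and 0.60, of which the first passed). Spry1 (0.88, a second probe 0.12) and Fosl1 (0.87) followed. Those that fell, named after their values were seen, were Egr1 (-0.78), Ier2 (-0.76), Etv5 (-0.55) and Srf (-0.55, a second probe 0.30).

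In NT against NO, where 22.6% of gene names passed, neither cascade gave a larger share of calls. In the ERK cascade 2 of 23 genes rose, Rasgrf1 (0.45, a second probe 0.52) and Rasa1 (0.34), and 1 fell (13% called). In the JNK and p38 cascade 2 of 14 fell, Mapkapk2 by 0.92 and Mapk11 by 0.34, and 1 rose, Map2k3 at 0.45 (21.4% called). Of 8 other phosphatases of MAP kinases (25% called) Ppm1a rose (0.94) and Ppp2ca fell (-0.61), and none of the 13 other dual-specificity phosphatases passed. In OE against NO no gene of these lists passed.

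**Figure D4:**
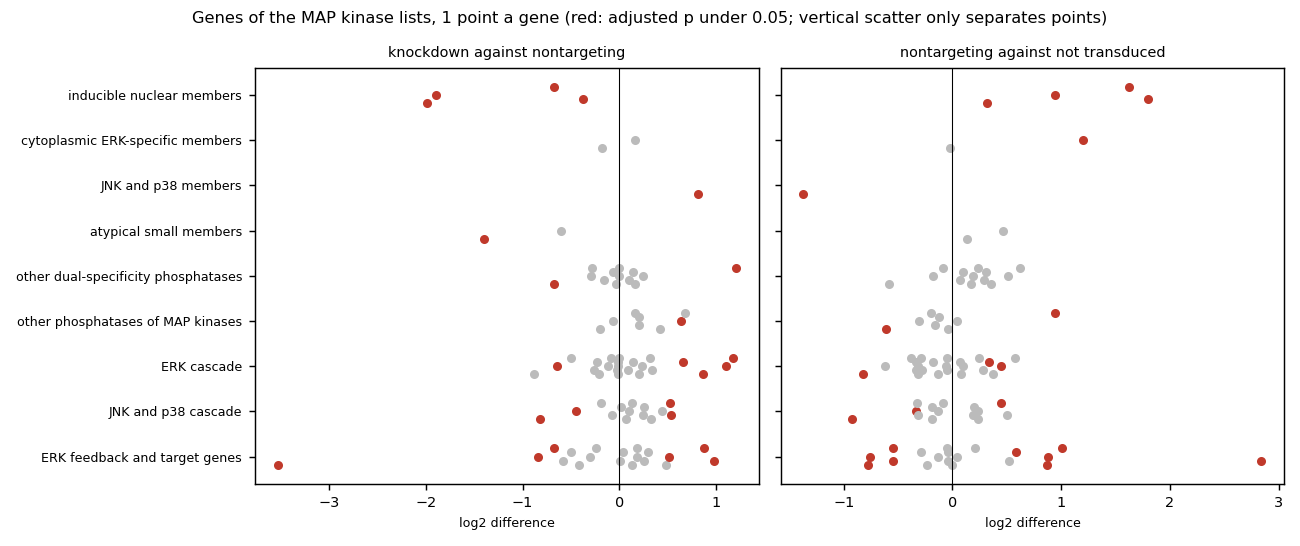
Log2 difference (horizontal axis) of each gene of the member classes and the fixed MAP kinase lists (vertical axis), 1 point a gene at its brightest probe, in red where the adjusted p was under 0.05. The 4 inducible nuclear members lie left of 0 in KD against NT and right of 0 in NT against NO, and Fos is the far point in both panels.

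Cell type markers also differed between the groups, and the lists did not all move alike. Of all gene names 21.5% passed in KD against NT and 22.6% in NT against NO. Of 8 interneuron markers 4 rose and 0 fell in KD against NT and 5 fell in NT against NO, with summed log2 levels of 14.91 to 15.42 in NO, 13.53 to 14.13 in NT, 14.00 to 14.50 in KD and 14.72 to 15.23 in OE. The sums are of intensities before the log, so the brightest markers weigh most. Among the interneuron markers these were Sst (mean 13.66) and Npy (12.27). Of 7 proliferation genes with a probe 6 rose in KD against NT and 4 fell in NT against NO. Over the 6 of the proliferation genes with a value in every sample, summed levels were 11.35 to 12.05 in NO, 10.83 to 11.12 in NT, 12.56 to 12.99 in KD and 11.58 to 11.93 in OE. Mki67 had no probe by name, and Cdk1 and Pcna were well above background in all samples. The summed level of 7 of 8 oligodendrocyte lineage markers was also lowest in NT, at 10.82 to 10.94 against 11.46 to 11.96 in NO. That sum leaves out the brightest of them, Olig1 (mean 14.36). The summed level of 6 neuron markers was highest in NT, at 16.94 to 17.15 against 16.71 to 16.81 in NO, 16.75 to 16.83 in KD and 16.54 to 16.71 in OE, while of 9 neuron markers tested 0 rose and 2 fell in NT against NO and 1 rose and 1 fell in KD against NT. Of 8 excitatory neuron markers 4 rose and 0 fell in NT against NO, and 0 passed in KD against NT (list medians 0.35 and -0.05). Of 8 astrocyte markers 2 rose and 1 fell in KD against NT, and 0 rose and 2 fell in NT against NO. The part of these markers in the phosphatase differences was not tested.

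Over the 16 samples the genes most like Dusp1, Dusp6 and Dusp16 were named by Pearson's r with 20444 other genes. This is a description, since the samples share groups, arrays and slides. A member need not stand for its class, as the nuclear Dusp1 and Dusp5 had an r of 0.36. For Dusp1 they were Lrrc40 (0.973), Tmem134 (0.962), Atp2a2 (0.96), Lrrc10b (0.959) and a probe with no gene name (0.962). For Dusp6 they were Or1l4 (0.983), Cytip (0.964), Neu2 (0.963) and 2 probes with no gene symbol, and for Dusp16 LOC690429 (0.985), Fbxw17 (0.976) and 3 probes with no gene symbol. Among the members Dusp6 ran closest to Dusp5 (r = 0.96), and Dusp16 ran opposite to Dusp5 (r = -0.92) and Dusp6 (r = -0.84).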

How the data were processed

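Transcript levels of 16 rat neuron cultures were read in 2 dyes on 8 arrays. A label field that describes adult hormone-treated brain contradicts the culture protocol and was not used. Per the file headers, the deposited intensity values are spot means with their local background medians, not normalized, as written by the scanner software Agilent Feature Extraction 10.7.3.1 (build rn4), beside a processed intensity already background-subtracted and dye-normalized. The deposited series matrix holds log2 values that equal, by regression on the scanner values, the median signal minus median background, centred on each column's median.

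Each array was corrected by normexp (offset 50), loess with control spots at weight 0 and Aquantile in limma 3.58.1 (R 4.3.3, with statmod 1.5.0 and, to read files, version 1.17.8 of the data.table package). Outlier-flagged spots were set missing, and a probe was kept if 4 or more of the 16 samples were well above background and it had 12 or more values, 2 or more in each group. Single-channel log2 values were fitted with group and dye as terms and the array as random block (correlation 0.562; 11 residual and 4.05 prior degrees of freedom), with two-sided p-values adjusted by Benjamini-Hochberg. The fit was tested on simulated data. Groups differ only between arrays, so the number of arrays limits the precision. Of 41012 probes 17921 were matched to a RefSeq symbol by accession, and the others kept the array's name; gene lists use the brightest probe of each of 22943 names. Named list genes are up to 4 with the smallest p in KD against NT and in NT against NO. Every member probe is given. A gene that the rule for lists names is not reported here. Probe positions are the array's. Promoters are RefSeq windows, searched in Python 3.11.15; plots used matplotlib 3.10.9.

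Members and lists were chosen with earlier results of these data known. Same-numbered samples, which share a dye, correlated in their deviations from group means at 0.137, 0.156, 0.264 and 0.201 in KD against NT and at 0.166, 0.172, 0.267 and 0.204 in KD against NO, all above 0.1. These correlations ran from 0.031 to 0.332 in NT against NO and from -0.192 to 0.256 in OE against NO. In OE against NT they ran from -0.013 to 0.096. With dye means removed the KD against NT values were 0.146, 0.08, 0.152 and 0.071. The main fit has a term for the dye but none for the replicate number, so its p-values are not paired. The number was used as a block in an alternative. The alternatives changed background correction, scaling, filter, dye, probe choice, blocks and samples.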

Additional observations from a re-analysis of the deposited data

Results flagged for a closer look

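Dusp6 in NO replicate 3 was 11.39, below the other NO samples at 11.61, 11.62 and 11.61, and its gap to the nearest took 0.957 of the group's range, above the critical value for 4 samples. Of 51 groups of member values 1 stood apart in this way, and chance alone gives about 1 in 20. In the fit without this sample the NT and KD rises of Dusp6 over NO kept their calls.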

How the results depend on the processing

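Of the 40 alternatives, those that moved a count of called member probes by over 1.5 times were loess without alignment between arrays (3 in NT against NO and 3 in OE against NT, in place of 6 each) and a fit of the Cy3 samples alone, which has fewer samples (1 of 10 in KD against NT in place of 7 of 11, and 3 in KD against NO in place of 6). OE against NO stayed at 0 in all 40. Without 1 replicate or 1 array the count ran from 5 to 8 in KD against NT, 4 to 7 in NT against NO, 4 to 6 in KD against NO and 5 to 7 in OE against NT. Leaving out arrays and dropping the array block were chosen after seeing the data. Dusp1 in KD against NT passed in 40 of 40, from -2.62 to -1.33, as did Dusp5, Dusp6 and Dusp16 in NT against NO. Under loess without alignment Dusp1 lost its calls in NT against NO (0.57), KD against NO (-0.76) and OE against NT (-0.80). Dusp4 passed in 33 of 40 in KD against NT and turned to 0.36 under loess without alignment. On the mean of both dyes of each array Dusp4 did not pass in KD against NT or NT against NO (adjusted p = 0.0598 and 0.0946). Neither did Dusp2 in NT against NO and OE against NT (adjusted p = 0.0546 and 0.0587), nor Dusp16 in KD against NO (adjusted p = 0.17).

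Loess without alignment moved the median of all probes to 0.64 in KD against NT, -0.22 in NT against NO, 0.31 in KD against NO and 0.36 in OE against NT, and the share of calls that were higher from 48.8% to 97.2%, from 50.3% to 4.42%, from 47.1% to 86.9% and from 47.2% to 94.7%. On the deposited matrix, with medians of 0.16, 0.2 and -0.19, that share was 78.8% in KD against NT, 82.1% in KD against NO and 32.6% in OE against NT. The processed signal moved the median to 0.13 in NT against NO and -0.14 in OE against NT.

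Over all probes, 5745 passed in KD against NT, 6069 in NT against NO, 2763 in KD against NO, 6145 in OE against NT and 1 in OE against NO. In that order these became 9791, 10800, 7108, 10782 and 30 without the array block. The first 4 became 2219, 2625, 613 and 2024 with Cy3 samples alone, and 3133, 3069, 713 and 3996 with Cy5 samples alone. Loess without alignment gave 11924 in KD against NT, 2716 in NT against NO and 2551 in OE against NT. The mean of both dyes gave 1217 in KD against NO, and a fit of the compared groups alone 3795 in NT against NO. Without 1 of the KD arrays 3284 and 3539 passed in KD against NT and 1154 and 1303 in KD against NO; the latter was 4224 without the array of NT replicates 3 and 4 and 1833 without that of NO replicates 1 and 2. Without 1 of the OE arrays 3450 and 3573 passed in OE against NT, and 39 and 41 in OE against NO.

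With the replicate number as a block, 8 of 11 member probes passed in KD against NT (Dusp14 in addition), 6 in NT against NO, 6 in KD against NO and 0 in OE against NO, and 8 in OE against NT; it changed no other call in KD against NT or KD against NO. Signal over background limits Dusp7, Dusp4, the second probe of Dusp16, the dim probe of Dusp3 and, outside NT, Dusp2.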
